A study of Arabidopsis thaliana with 4 samples.

Results

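*GH3.3*, *GH3.4*, *WES1* (also *GH3.5*), *DFL1* (also *GH3.6*), *GH3.17*, *GH3.9* and *IAMT1* encode enzymes that take the auxin indole-3-acetic acid (IAA) out of its active form. These 7 genes of *Arabidopsis thaliana* were chosen by locus, with earlier results of these data known. Each is read by 1 named probe set, and they are 7 of the 22746 probe sets tested. Transcript levels were measured in whole light-grown seedlings of the Columbia wild type (Col-0), 5 days old, that had been immersed for 2 h in water holding 10 µM IAA (IAA, 2 arrays) or in water alone (mock, 2 arrays). Both groups carried the same genotype and the same handling, so the comparison addresses the effect of IAA within immersed seedlings. The methods call the 2 replicates of each treatment biologically independent. Total RNA was hybridized to Affymetrix arrays, and the values are expression values on a linear scale after robust multi-array averaging (RMA). Values of different probe sets are not on a common scale, so levels were compared between treatments only, and genes were compared with each other only by their change.

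IAA is kept in check by several kinds of chemical change. The GH3 enzymes of group II activate IAA with ATP and join it to an amino acid. Some of these amide conjugates are broken down and others can be split again to give back IAA. IAMT1 instead transfers a methyl group to the carboxyl group of IAA, which gives the methyl ester. GH3 genes were among the first genes known to be switched on by auxin, and the family acts as a feedback on the hormone level.

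After IAA treatment 6 of the 7 genes rose and 0 fell. A probe set was called at a Benjamini-Hochberg adjusted p below 0.10 and a log odds of differential expression (B) above 0 in limma, a linear model with variances moderated across all probe sets. By this rule 1.48% of all probe sets were higher in IAA (337 of 22746) and 0.374% were lower (85). Those background counts depended on single arrays: they were 158 and 21 without mock replicate 1, 196 and 20 if mock replicate 2 was left out, and 371 and 162 when IAA replicate 2 was. The median log2 change of the 7 genes was 2.61, against -0.02 over all probe sets. In the same 6 genes the lower IAA array exceeded the higher mock array, a pattern found in 24.5% of all probe sets. *GH3.9* was the gene that was not called. The 6 include *IAMT1*, which could be named only as a transcript already listed as responsive on these arrays. *GH3.4* and *DFL1* were named only through the study's lists of brassinosteroid-responsive transcripts. A transcript named in that way can also stand on the study's auxin lists.

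**Figure D1:**
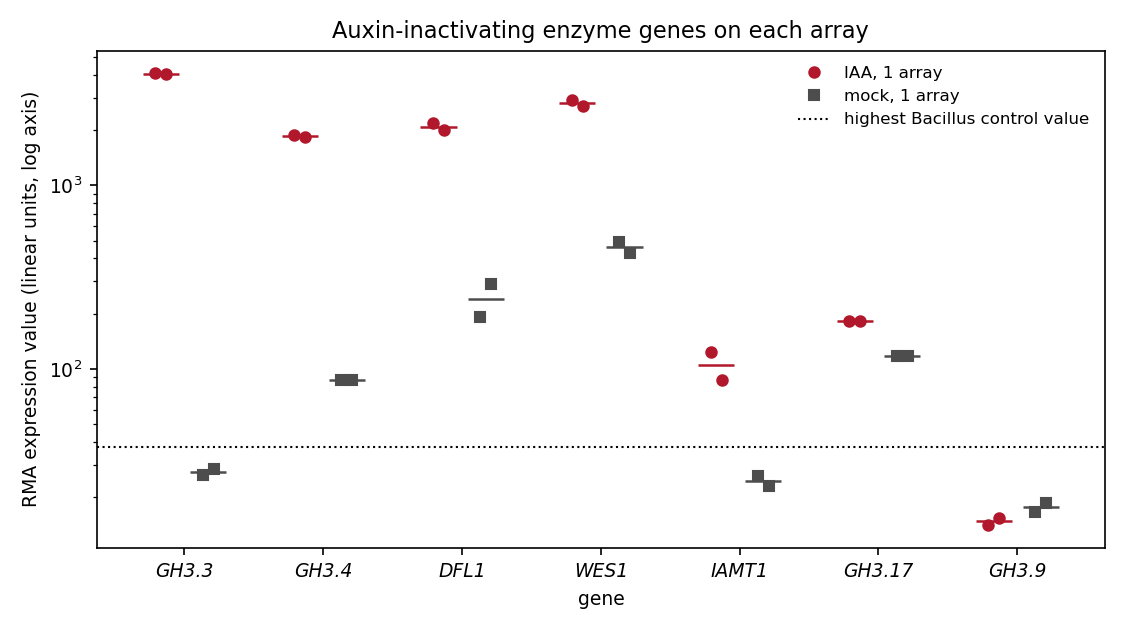
Expression value (RMA, linear units on a log axis) of each gene on each of the 4 arrays, with IAA arrays as circles, mock arrays as squares and short lines for the means of 2 arrays. The IAA arrays lie above the mock arrays in every gene but *GH3.9*, which stays under the dotted line at 37.6, the highest value of the *Bacillus* control probe sets. Heights of different genes are not on a common scale.

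Among the GH3 enzymes the largest change was that of *GH3.3* (AT2G23170). Its values were 4071 and 4053 on the IAA arrays, against 26.6 and 28.4 on the mock arrays. The groups were far apart, and the IAA arrays differed by only 0.01 on the log2 scale. The log2 change was 7.21 ± 0.09 (SE, 95% interval 6.98 to 7.43, limma adjusted p = 1.63e-05), which was the largest increase of all 22746 probe sets. The mock values were near background, defined here as at or below 37.6, the highest value among 27 control probe sets for *Bacillus* genes. A single control probe set gave that value, and the next highest gave 19.2. Against 37.6 the rise was at least 108-fold, and the larger measured ratio rests on a dim mock value.

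*GH3.4* (AT1G59500) had the next largest change among the 7 genes, and stood in place 4 of all probe sets by size of increase. It read 1873 and 1837 in IAA seedlings, against 87.4 and 86.6 in mock seedlings. Replicates were close in both groups, and the mock values lay above the background limit. The increase was 21.3-fold (95% interval 18.4-fold to 24.7-fold, limma adjusted p = 9.92e-05). The array's design marks this probe set as one that shares sequence with similar genes, so signal from a close relative may be included.

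*DFL1* (AT5G54510), named for the short hypocotyl in light of plants that overexpress it, read 2191 and 1990 in IAA seedlings, against 191 and 291 in mock seedlings. Both IAA arrays were high, and the mock arrays were unusually far apart. Their gap of 0.61 on the log2 scale was wider than the mock gap of 99.6% of all probe sets, where the median gap was 0.10. The increase was 8.86-fold (95% interval 6.23-fold to 12.6-fold, limma adjusted p = 0.00245). Its log2 change was 2.84 without mock replicate 1 and 3.45 without mock replicate 2, and the call held in both.

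*WES1* (AT4G27260), whose enzyme also accepts salicylic acid, read 2923 and 2687 in IAA seedlings, against 493 and 428 in mock seedlings. The groups did not overlap, and both lay well above the background limit. The increase was 6.10-fold (95% interval 5.04-fold to 7.38-fold, limma adjusted p = 5.46e-04).

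*GH3.17* (AT1G28130), an enzyme that prefers glutamate as the amino acid, changed least of the called genes. It read 182 and 182 in IAA seedlings, against 118 and 117 in mock seedlings. Replicates were nearly equal: 2.13% of all probe sets had a smaller gap between IAA arrays and 4.55% a smaller gap between mock arrays. The increase was 1.55-fold (95% interval 1.34-fold to 1.79-fold, limma adjusted p = 0.0270, B = 0.51), place 541 by size of increase. This call was the least secure of the 6. It was lost when any 1 array was left out, as B fell below 0 each time. The limma adjusted p was then 0.0412 or 0.0339 (leaving out IAA replicate 1 or 2) and 0.231 or 0.197 (leaving out mock replicate 1 or 2). The size of the change stayed between 0.63 and 0.64 on the log2 scale in these fits.

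*GH3.9* (AT2G47750), which has been linked to growth of the primary root, read 14.1 and 15.5 in IAA seedlings, against 16.6 and 18.6 in mock seedlings. All 4 values were below the background limit. The log2 difference was -0.25 ± 0.11 (SE, 95% interval -0.51 to 0.01, limma adjusted p = 0.257), and with both groups near background it gives no direction. *GH3.9* did not rise above the background limit with IAA, as *GH3.3* did from mock values near background. A change that stays below that limit was not detectable, so a smaller response is not shown to be absent.

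The methyltransferase gene *IAMT1* (AT5G55250) read 123 and 86.7 in IAA seedlings, against 26.2 and 22.9 in mock seedlings. The IAA arrays were farther apart than in 96.1% of all probe sets, yet each exceeded the mock arrays. The measured log2 change was 2.08 ± 0.18 (SE, limma adjusted p = 0.00693), place 53 by size of increase. Since the mock values were near background, the rise is given as at least 2.75-fold. When a pseudocount of 64 was used the log2 change was 0.92 and was no longer called (limma adjusted p = 0.0667, B = -0.96). The name of this probe set came from a list of auxin-responsive transcripts that the study chose on these same arrays, so its increase is not independent evidence of a response.

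**Figure D2:**
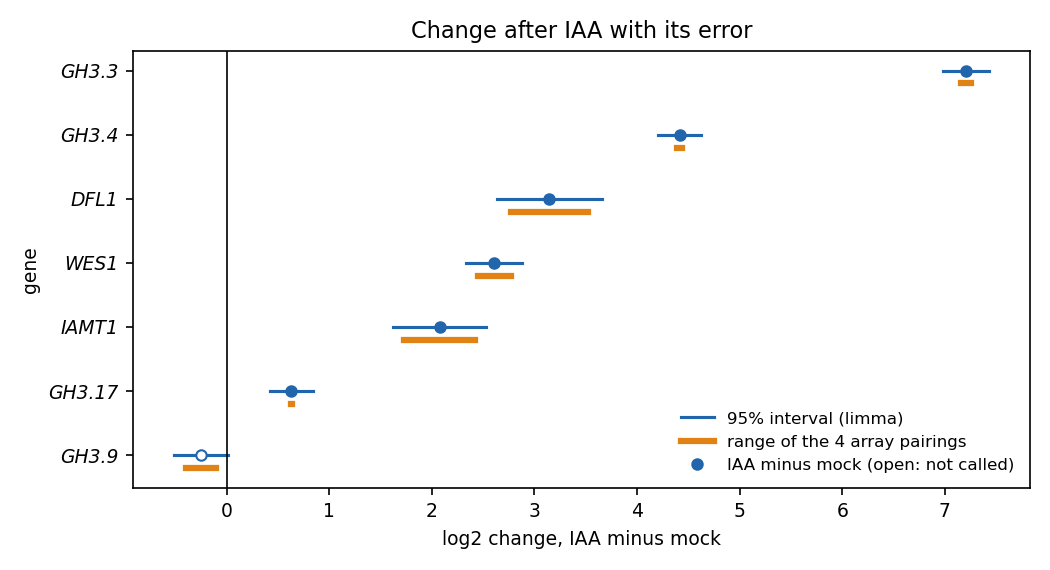
Log2 change (IAA minus mock) of each gene with its 95% interval from limma (thin line) and the range of the 4 differences between a single IAA array and a single mock array (thick line). The changes run from 7.21 in *GH3.3* to -0.25 in *GH3.9*, the open point, whose interval includes 0.

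The 7 genes thus spanned a wide range of changes within one family of functions. The 4 differences between a single IAA array and a single mock array ran from 7.16 to 7.26 on the log2 scale for *GH3.3* and from 4.39 to 4.43 for *GH3.4*. For *DFL1* they ran from 2.77 to 3.52, for *WES1* from 2.45 to 2.77 and for *IAMT1* from 1.73 to 2.43. *GH3.3* and *GH3.4* were thus set apart from each other and from the rest by more than the arrays differed. The 95% intervals of *DFL1* and *WES1* overlapped, and so did those of *WES1* and *IAMT1*. The ranges over single arrays of these neighbors lay close together without overlap (lowest of *DFL1* 2.7718, highest of *WES1* 2.7717). Overlap of intervals does not settle their order. *GH3.17* ran from 0.63 to 0.64, under all of these, and *GH3.9* from -0.40 to -0.10. The differences between genes were not tested.

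The rest of the GH3 family was examined next. From here on, a gene is called measured where a probe set could be named for it. Where the platform table gave no name, a probe set was named only if it stood on the study's lists of hormone-responsive transcripts. Apart from any 1 of the 6 called genes, 417 of the called probe sets (337 higher, 85 lower) named 1 gene. Counts among measured genes therefore favor called genes and are not neutral beside the shares over all probe sets. The other listed genes may be read by one of the 8245 probe sets left unnamed, and counts of calls cover the named ones only. *GH3.1*, another group II enzyme, read 156 and 135 in IAA seedlings, against 29.5 and 25.6 in mock seedlings. It rose with a measured log2 change of 2.40 ± 0.12 (SE, limma adjusted p = 0.00106), although its mock values were near background, and it was at least 3.86-fold higher. With it, 6 of the 7 measured group II genes rose, and *GH3.9* was the exception. Group II holds 8 genes, and *GH3.4* and *DFL1* count as measured only through the study's lists of brassinosteroid-responsive transcripts. *DFL2* was the measured gene of group I, which also holds the jasmonate-conjugating enzyme JAR1. It read 344 and 356 in IAA seedlings, against 305 and 295 in mock seedlings, a log2 difference of 0.22 that was not called (limma adjusted p = 0.233). Of 9 group III genes, 6 were measured and 0 were called by limma. All 6 had both group means near background, with log2 differences from -0.36 to 0.20. None rose above the background limit with IAA, and changes that stay below it could not be read.

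The other routes that remove, release or make IAA were then set beside these genes. Of 5 measured genes on the list of oxidation and glucosylation, 0 were called by limma. *UGT74D1*, which joins glucose to IAA and to its oxidized form, was farthest from 0. It read 490 and 434 in IAA seedlings, against 708 and 663 in mock seedlings, with a log2 difference of -0.57 ± 0.10 (SE, limma adjusted p = 0.0584, B = -1.17). That difference passed the limit on adjusted p but not the rule on B. *UGT84B1*, another glucosyltransferase for IAA, read 15.9 and 15.4 in IAA seedlings, against 15.5 and 15.7 in mock seedlings, and was near background on all arrays. Of 14 genes that split conjugates or methyl esters, 1 was measured. *ILL6*, of the amidohydrolase family, read 298 and 282 in IAA seedlings, against 237 and 192 in mock seedlings, a log2 difference of 0.44 that was not called (limma adjusted p = 0.140). Neither of the 2 measured methyltransferases related to IAMT1 was above the background limit, and *BSMT1*, which methylates salicylic and benzoic acid, had the larger difference at -0.18.

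Of 17 genes of IAA synthesis, 5 were measured and 0 were called by limma. They included 4 *YUC* genes, whose enzymes catalyze the last step from indole-3-pyruvic acid to IAA. *YUC6* was farthest from 0 at a log2 difference of -0.47, with both group means near background. The other 4 genes lay on both sides of 0, at -0.37 for *YUC2*, -0.04 for *YUC4*, 0.17 for *YUC3* and 0.38 for *CYP79B2*, an enzyme of indole-3-acetaldoxime formation. *CYP79B2* read 50.6 and 89.0 in IAA seedlings, against 41.8 and 63.7 in mock seedlings, and its groups overlapped. Over the 21 measured genes of these lists apart from the 7 enzymes, 1 was called higher (*GH3.1*), 0 were called lower, the median log2 difference was -0.01 and 7 (33.3%) had an unadjusted limma p below 0.05, against 20.7% of all probe sets.

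**Figure D3:**
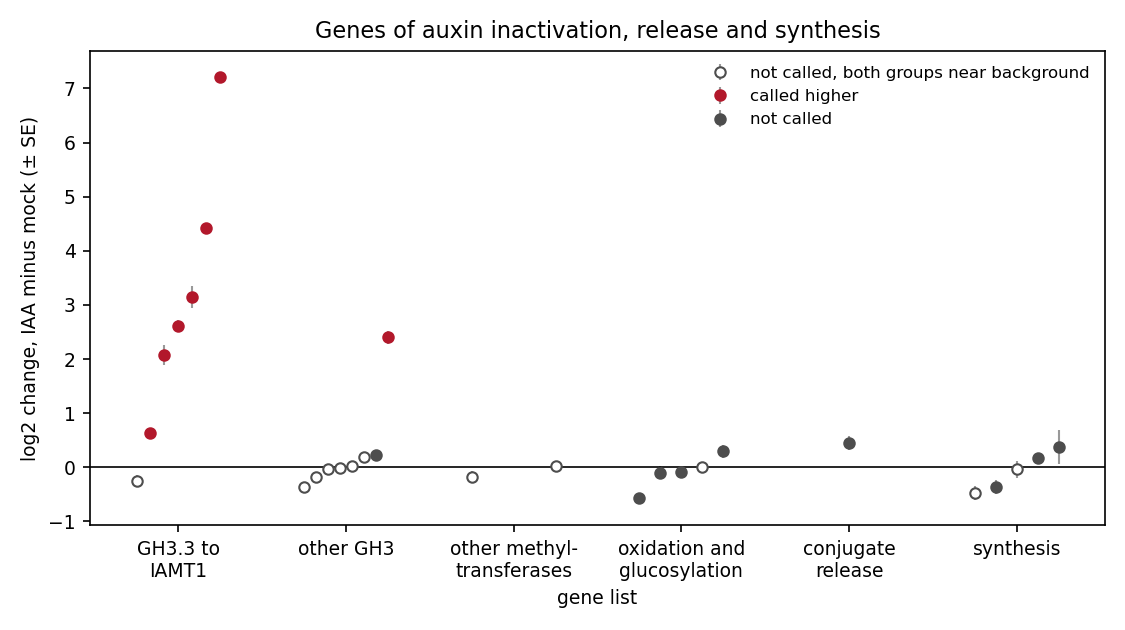
Log2 change (IAA minus mock, ± SE) of the 7 enzyme genes and of 21 other measured genes of auxin metabolism, by list. Red points were called higher, and open points had both group means near background. Increases of 0.63 or more are found in the left column and in *GH3.1*, and all other points lie between -0.57 and 0.44.

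The profiles nearest to each called gene were then sought among called probe sets that name 1 gene, by the Euclidean distance of 4 log2 values centred on the mock mean. *GH3.3* had no close match, as the nearest, the Aux/IAA gene *IAA29*, lay 3.47 away. *GH3.4* lay 0.14 from *IAA1*, which also encodes an Aux/IAA repressor of auxin response and changed by 4.36. *WES1* was nearest to AT4G34770 (0.12) and to the membrane-associated kinase regulator gene *MAKR4* (0.28). *DFL1* was nearest to the root growth peptide gene *RGF9* (0.11) and to the Aux/IAA gene *IAA2* (0.37). *GH3.17* lay 0.02 from the transcription factor gene *ERF11* and 0.03 from the Rab GTPase gene *RABA4B*. *IAMT1* lay 0.17 from the lupeol synthase gene *LUP1* and 0.21 from AT1G65920. With 4 arrays these distances describe the size of the change and the replicate gaps and say nothing of shared control.

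Neighboring genes on the chromosome were also read. Of the 14 protein-coding genes directly before or after one of the 7, 10 were measured. Of these, 8 were named without the study's auxin lists, and 0 of the 8 were called by limma (1 had an unadjusted limma p below 0.05). The other 2 were named through those lists, which hold transcripts already found responsive on these arrays, so that they were called higher is no finding about neighbors. *CYP96A1*, a cytochrome P450 gene next to *GH3.3*, read 70.9 and 82.2 in IAA seedlings, against 41.6 and 42.5 in mock seedlings (log2 change 0.86 ± 0.11 SE, limma adjusted p = 0.0205). *FQR1*, a quinone reductase gene next to *DFL1* that has been described as an early auxin-response gene, read 3251 and 3238 in IAA seedlings, against 1955 and 2006 in mock seedlings (0.71 ± 0.09 SE, limma adjusted p = 0.0190). On the other side of *GH3.3*, AT2G23160 read 42.2 and 42.3 in IAA seedlings, against 42.0 and 42.0 in mock seedlings.

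Tissue markers were read in the same arrays. Of the 6 shoot, 5 root and 3 seed storage genes listed as markers, 1, 4 and 0 were measured. The shoot gene *PRK* and all 4 measured root genes lay above the background limit on every array. The summed level of the root genes was 2785 to 3215 in IAA seedlings, against 3337 to 3939 in mock seedlings. *TIP2;3* could be named only through an auxin list, and without it the sums overlapped, at 2468 to 2863 in IAA seedlings, against 2645 to 3170 in mock seedlings. A sum weights each gene by the brightness of its probe set, here mostly *PYK10*. *CASP5* was named through a list of brassinosteroid-responsive transcripts. Of these 4 genes, *TIP2;3* and *CASP5* fell by 1.13 and 0.99 on the log2 scale (limma adjusted p = 0.00865 and 0.0182). *EXPA7* and *PYK10* were not called. The log2 difference of *EXPA7* was -0.40 (limma adjusted p = 0.0922, B = -2.30), which passed the limit on adjusted p but not the rule on B. That of *PYK10* was -0.09 (limma adjusted p = 0.768). *PRK* read 5204 and 4817 in IAA seedlings, against 5687 and 5804 in mock seedlings, and was not called. In whole seedlings a change in the number of cells of a type and a change in RNA per cell cannot be told apart, and the part of tissue makeup in the increases above was not tested.

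**Figure D4:**
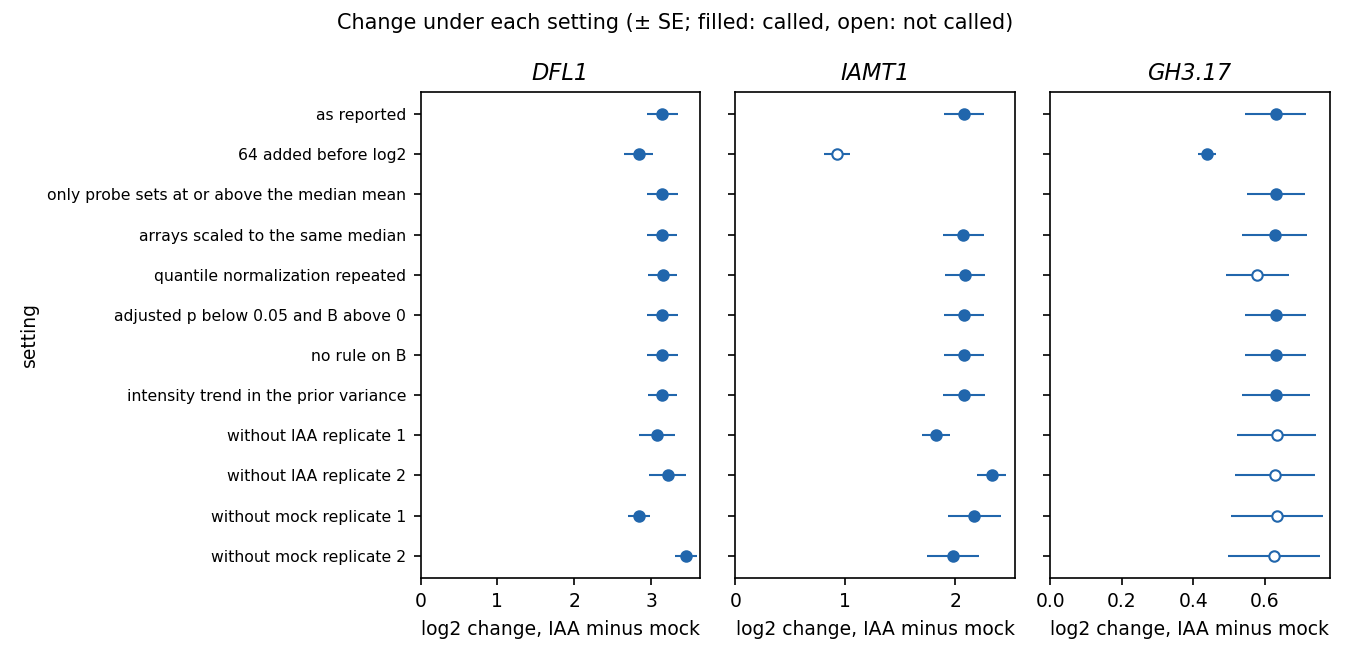
Log2 change (IAA minus mock, ± SE) of *DFL1*, *IAMT1* and *GH3.17* as reported and under the alternative settings that have no replicate block. Filled points were called and open points were not. *DFL1* was called in every setting shown, *IAMT1* lost its call with 64 added before the log, and *GH3.17* lost it without each single array and with quantile normalization repeated. *IAMT1* has no point where dim probe sets were left out.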

How the data were processed

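The deposited values are expression intensities per probe set on a linear scale, which the authors made with rma of the Bioconductor affy package (background correction, quantile normalization, probe-set summary). Its version, and the set of arrays normalized together, are not given in the sources used here. Quantile normalization would hide a shift shared by most transcripts. Medians were 62.1 to 63.5 per array, and r was 0.994 between IAA arrays, 0.997 between mock arrays and at most 0.988 across groups (across probe sets). Precision is limited by having 2 arrays of each treatment.

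No pseudocount was added before the log2 step. Of 22810 probe sets, 64 controls were left out. The rest were fitted in R 4.3.3 with limma 3.58.1 (lmFit, then eBayes), treatment as the only term, with Benjamini-Hochberg adjustment over all 22746. The call rule is the one in the study's methods. The fit was tested on simulated data. Groups came from the sample descriptions and replicate numbers from the titles.

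Probe sets were named through the platform table (13513 with 1 gene, 503 with several) and RefSeq of assembly TAIR10.1, or else, for identity only, through the study's brassinosteroid (BR, 335) or auxin lists (150), and 8245 were left unnamed. *GH3.4* and *DFL1* were named through BR lists, *IAMT1* through an auxin list. Genes and lists were chosen with earlier results of these data known. All 7 enzymes were named, and of each other list the called genes with the 2 largest changes in each direction or, where none was called, the gene farthest from 0. Other genes given as values (*DFL2*, *UGT84B1*, *YUC2*, *YUC3*, *YUC4*, *CYP79B2*, AT2G23160), the chromosomal neighbors, the root sum without *TIP2;3* and the background limit were chosen after values were seen. The planned search of promoters and proteins was not made, as no sequence was used here. Alternatives were a pseudocount, a filter, 2 normalizations, 2 call rules, a variance trend, a replicate block and leaving out each array.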

Additional observations from a re-analysis of the deposited data

How the results depend on the processing

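*GH3.3*, *GH3.4*, *WES1* and *DFL1* kept their direction and call in all 13 alternatives, with log2 changes of 5.50 to 7.26, 3.67 to 4.43, 2.45 to 2.71 and 2.84 to 3.45. The order of the 7 changes was the same in all alternatives, apart from *IAMT1* and *GH3.9*, which the filter on dim probe sets removed. *IAMT1* lost its call with 64 added (0.92) and *GH3.17* with quantile normalization repeated (0.58, limma B = -0.03). Leaving out 1 array, *GH3.17* ranged from 0.63 to 0.64 and was never called, *IAMT1* from 1.82 to 2.33 and *GH3.9* from -0.33 to -0.17. A group left with 1 array is assumed to vary like the other. The causes were not tested.

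Over all probe sets, calls higher and lower ranged from 158 to 397 and from 20 to 162 when 1 array was left out, and were 880 and 513 with no rule on B, when 1 other listed gene, *UGT74D1*, was also called lower. The main fit had no replicate block, as the study's methods name none. Same-numbered arrays did not deviate together (r = -0.19 across probe sets). With the replicate block, 145 were higher and 10 lower, and *GH3.17* (0.63, limma adjusted p = 0.176) was not called. With the crossed replicate block, added after the data were seen, 299 were higher and 86 lower, and *GH3.17* (0.63) was not called. The block changed no other call among the 7.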
